A study of Rattus norvegicus with 10 samples.

Results

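The 10 genes described here mark inhibitory interneurons, the GABA-releasing cells of the hippocampus. They were taken by name (Gad1, Gad2, Slc32a1, Pvalb, Sst, Vip, Npy, Cck, Reln and Calb2), with earlier results of these data known, and all 10 were found among the 17168 gene symbols of the deposited tables. RNA was sequenced from 10 female rats of the TgF344-AD strain at 11 months of age, 1 left hippocampus per library. This rat is an Alzheimer's disease model that carries human transgenes with disease mutations under a prion promoter. Untreated rats (5 animals) ate plain rodent chow. Treated rats (5 animals) ate chow with 750 mg of RG2833 per kg of chow from 5 months of age, for 6 months. RG2833 inhibits the histone deacetylases HDAC1 and HDAC3. Both groups are transgenic, and rats without the transgenes were not part of the comparison, so whether a difference with the drug depends on the transgenes was not tested. The treated chow was marked with a blue food dye.

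Interneurons make GABA from glutamate with the enzymes encoded by Gad1 and Gad2 and load it into synaptic vesicles with the transporter encoded by Slc32a1. The classes differ in where they contact principal cells. Parvalbumin cells target the soma and axon initial segment and somatostatin cells the distal dendrites, whereas many calretinin and VIP cells contact other interneurons. Parvalbumin and somatostatin cells arise in the medial ganglionic eminence and most VIP, calretinin and CCK cells in the caudal one. Several of the genes are not restricted to interneurons. Cck is also made by pyramidal cells, and Reln and Calb2 also by Cajal-Retzius cells, an early-born cell type at the hippocampal fissure.

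Somatostatin and VIP are textbook targets of the cyclic AMP-responsive factor CREB, so the matching stretches of their promoters are shown first. Windows from 250 bases before to 50 bases after the annotated start were available for 8 of the 10 genes (RefSeq, GRCr8 build). Cck and Calb2 had no entry. Each window was searched for TGACGTCA, the palindromic cyclic AMP response element, and for the shorter TGACGT that it contains, in both orientations. Sst held the full element, at position 3 after the annotated start, as did 1.83% of all 33469 windows. Vip held the shorter form at position -97, and 7.94% of all windows held it. Both stretches lie on the plus strand and are printed 5′ to 3′ with the matched letters in capitals. The Sst stretch is chr11:90461537-90461566 and the Vip stretch chr1:44470372-44470401.
Sst: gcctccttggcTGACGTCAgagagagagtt
Vip: gatcaccactgTGACGTctttcgaggagcc
A match of letters is a description of the window, and the values of Sst and Vip in the 2 groups follow below.

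Total counts ran from 8764245 to 11311652 per library. Levels are given in CPM, counts scaled to library size, after TMM scaling, which sets the libraries level on the bulk of their genes. All 12 markers of hippocampal and other glutamatergic neurons passed the filter on low counts, as did all 8 markers of neighbouring thalamus and striatum. Slc17a7, the vesicular glutamate transporter gene of principal neurons, was between 1266 and 2344 CPM. Some features of the libraries moved with treatment or set animals apart. Ribosomal RNA loci took a share of 2.70% to 5.36% of the counts in untreated and 1.13% to 1.96% in RG2833 animals. The glutamatergic marker score (mean over 12 genes of log2 CPM centred per gene) was between -0.83 and -0.25 in untreated replicates 1, 2, 3 and 5 and 0.42 in untreated replicate 4, against 0.082 to 0.49 in RG2833 animals. Untreated replicate 1 stood apart in Ttr, a choroid plexus marker, with 2381 CPM against 3.80 to 38.4 CPM in the other 9 animals.

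Of the 10 interneuron genes, 1 was called in the edgeR quasi-likelihood fit, where a call means a Benjamini-Hochberg p under 0.05 over the 11791 genes tested. That gene was Calb2, which was lower with RG2833. Of all tested genes, 5.08% were called, with 2.67% called lower and 2.41% called higher in RG2833 animals. In 0 of the 10 genes did the 5 RG2833 values lie entirely to one side of the 5 untreated values, against 7.27% of all tested genes. Besides Calb2, no other member reached an unadjusted p under 0.05, against 24.5% of all tested genes. The median log2 fold change of the 10 was -0.12 and that of all tested genes -0.0035. A lower value in such bulk tissue cannot distinguish fewer cells of a type from less RNA per cell.

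**Figure D1:**
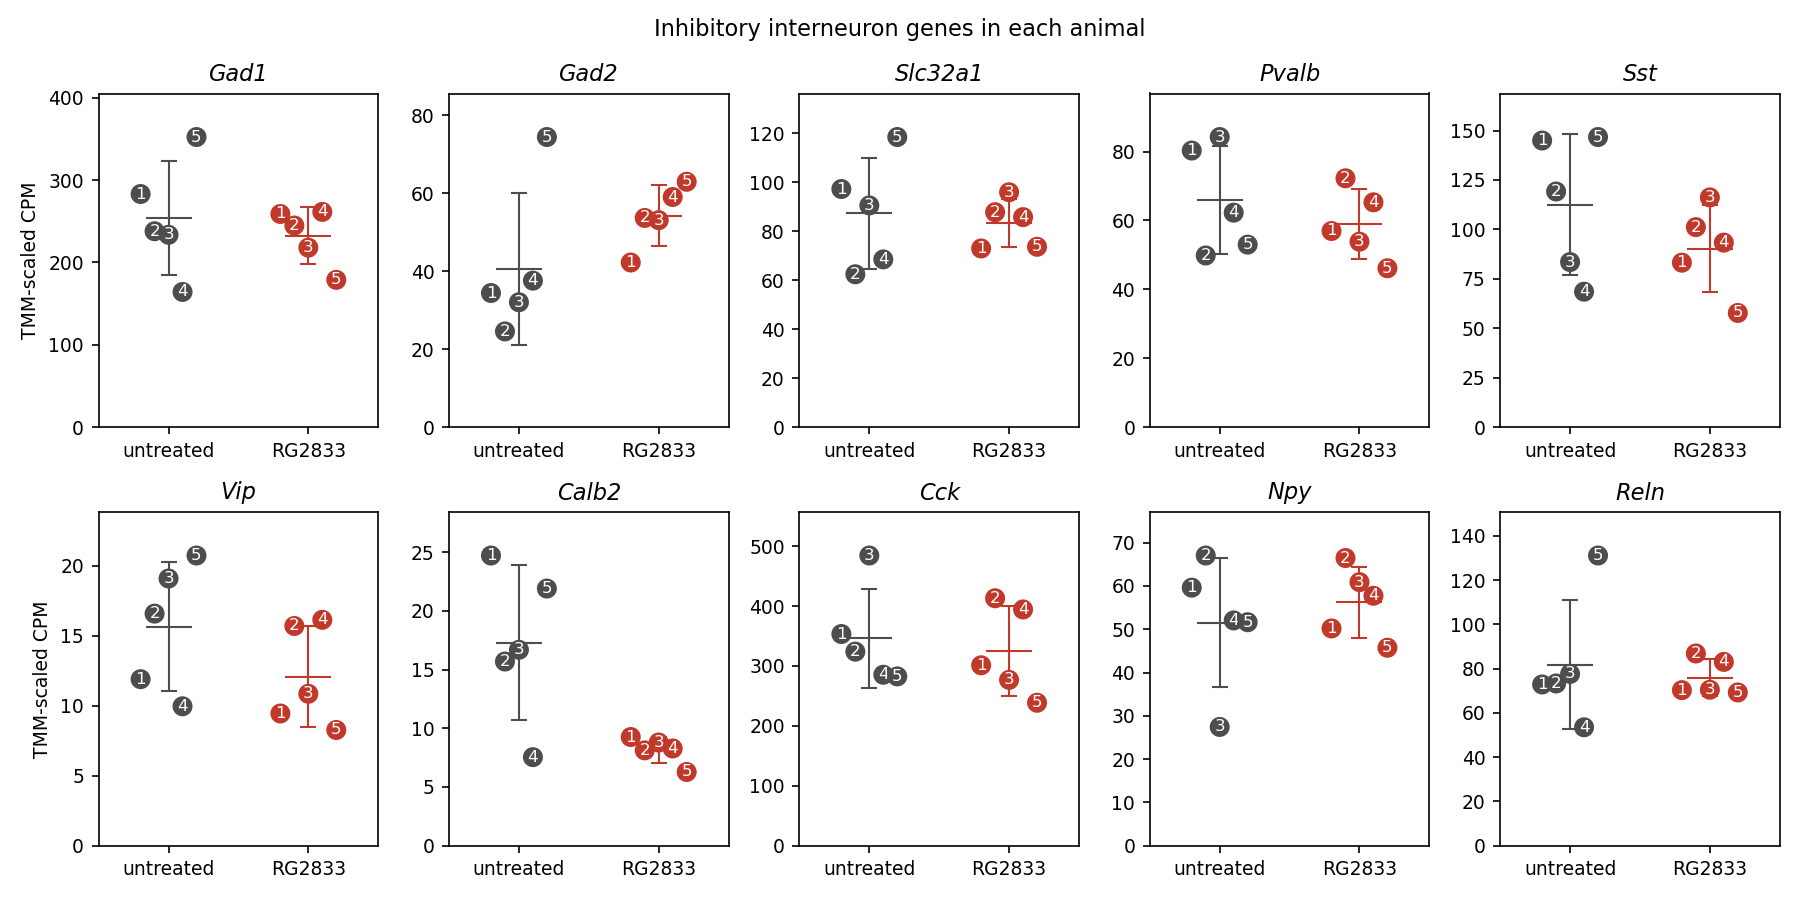
TMM-scaled CPM (y axis, from 0) of the 10 interneuron genes in each animal, with untreated rats in grey and RG2833 rats in red. The digit is the replicate number, and the bar and whiskers are the mean and SD of 5 animals. The Calb2 values of RG2833 rats lie between 6.28 and 9.25 CPM, and only untreated replicate 4 lies among them.

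The genes of GABA synthesis and vesicular loading did not pass the test. Gad1 encodes GAD67, the isoform that supplies most GABA of the cell. It was 283.1, 237.9, 233.6, 164.2 and 352.3 CPM in untreated replicates 1 to 5 and 258.9, 244.8, 218.0, 261.4 and 178.9 CPM in RG2833 replicates 1 to 5. All 5 RG2833 values lay within the untreated range. Its log2 fold change was -0.13 ± 0.17 (SE; edgeR adjusted p = 0.681), with a 95% interval from -0.50 to 0.24.

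Gad2 encodes GAD65, the isoform attached to synaptic vesicle membranes. Its untreated values were 34.4, 24.6, 32.1, 37.6 and 74.5 CPM and its RG2833 values 42.3, 53.7, 53.1, 59.1 and 63.0 CPM. Every RG2833 animal was above untreated replicates 1 to 4 and below untreated replicate 5, which stood apart. Across the groups the log2 fold change was 0.42 ± 0.24 (SE; edgeR adjusted p = 0.305), with a 95% interval from -0.11 to 0.94. Without untreated replicate 5 it was 0.75 and passed (edgeR adjusted p = 0.0106).

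Slc32a1, the vesicular GABA transporter gene, was 97.2, 62.4, 90.5, 68.5 and 118.5 CPM in untreated animals. In RG2833 animals it was 73.0, 87.8, 95.9, 85.8 and 73.7 CPM, within the untreated range in each case. Its difference on the log2 scale was -0.070 ± 0.16 (SE; edgeR adjusted p = 0.817; 95% interval -0.41 to 0.27).

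The ratio of Gad2 to Gad1 does not depend on library scaling. It was 0.122, 0.103, 0.137, 0.229 and 0.211 Gad2 counts per Gad1 count in untreated replicates 1 to 5 and 0.163, 0.219, 0.244, 0.226 and 0.352 in RG2833 replicates 1 to 5. The groups overlapped, with 2 of 5 RG2833 animals above the highest untreated animal. The log2 ratio was 0.61 higher in RG2833 animals (SDs 0.50 and 0.40, n = 5 each), a difference that did not pass a two-sided exact permutation test (p = 0.0635, smallest possible 0.00794) that was chosen after the values were seen.

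Among the markers of classes from the medial ganglionic eminence, neither passed. Pvalb encodes the calcium buffer parvalbumin of fast-spiking basket and axo-axonic cells. Untreated values were 80.3, 49.8, 84.2, 62.3 and 53.0 CPM, and RG2833 values were 56.9, 72.2, 53.8, 65.3 and 46.1 CPM. Only RG2833 replicate 5 fell outside the untreated range, below it. On the log2 scale Pvalb differed by -0.16 ± 0.16 (SE; edgeR adjusted p = 0.564), with a 95% interval from -0.51 to 0.18.

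Sst encodes somatostatin, the inhibitory peptide of dendrite-targeting cells and the gene with the full response element shown above. It was 144.9, 119.2, 83.5, 68.5 and 146.7 CPM in untreated animals and 83.2, 101.1, 116.2, 93.3 and 57.8 CPM in RG2833 animals. All 5 RG2833 values were below the untreated median of 119 CPM, while untreated replicates 3 and 4 lay among them. For Sst the log2 fold change was -0.32 ± 0.22 (SE; edgeR adjusted p = 0.401), with a 95% interval from -0.80 to 0.16.

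The classes from the caudal ganglionic eminence held the single call. Calb2 encodes calretinin, a calcium-binding protein of interneurons that contact other interneurons. In untreated replicates 1 to 5 it was 24.7, 15.7, 16.7, 7.54 and 21.9 CPM. In RG2833 replicates 1 to 5 it was 9.25, 8.12, 8.79, 8.28 and 6.28 CPM. The treated animals formed a narrow group below untreated replicates 1, 2, 3 and 5, and untreated replicate 4 lay inside that group. RG2833 animals averaged 8.14 ± 1.13 CPM of Calb2 and untreated animals 17.3 ± 6.60 CPM (SD, n = 5 each), a level 2.11-fold lower by the fit. On the log2 scale the change was -1.08 ± 0.25 (SE; 95% interval -1.63 to -0.53; edgeR adjusted p = 0.0354). Between 60 and 216 counts per library lay behind these values.

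This call rested on a thin margin. In the fits that each left out 1 of the 10 animals, the log2 fold change of Calb2 ran from -1.27 to -0.92 and passed in 2, those without untreated replicate 4 (edgeR adjusted p = 0.00103) and without untreated replicate 5. The other 8 gave edgeR adjusted p-values up to 0.101. With the replicate number as a block it was -1.01 (edgeR adjusted p = 0.0754).

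The glutamatergic marker score is set beside Calb2 here. The 4 untreated animals with negative scores had the 4 highest Calb2 values, and untreated replicate 4, with a score of 0.42, had a Calb2 level inside the treated range. In RG2833 replicates 1 to 5, scores of 0.082, 0.44, 0.49, 0.25 and 0.33 went with Calb2 levels of 9.25, 8.12, 8.79, 8.28 and 6.28 CPM. With the score as a covariate the log2 fold change of Calb2 was -0.28 and did not pass (edgeR adjusted p = 0.873), in a fit that called 5 genes in all. With the ribosomal RNA share as the covariate it was -1.05 and with Ttr -0.94, and it did not pass in either fit (edgeR adjusted p = 1.00 and 0.0568). Apart from untreated replicate 4 the score did not overlap between the groups, so the score and the treatment cannot be told apart in the other 9 animals. Of the 12 genes of the score, 11 had a positive log2 fold change and 1, Fibcd1, a negative one. Wfs1, a gene of CA1 pyramidal cells, had the highest. It was 588 CPM in untreated replicate 4 and between 63.9 and 88.0 CPM in the other untreated animals, against 107.8 to 605 CPM in RG2833 animals. Fibcd1, another CA1 gene of the list, was 88.3, 120.2, 365, 251 and 298 CPM in untreated replicates 1 to 5, with a log2 fold change of -0.046 against 1.04 for Wfs1. The Cajal-Retzius cell genes Lhx1 and Lhx5 had at most 2 counts in any library, and the summed level of the 5 such markers in the table was 3.20 to 11.1 CPM in untreated and 6.24 to 11.2 CPM in RG2833 animals. The 3 that were tested went both ways and were not called. Their log2 fold changes were 0.97 for Tp73, -0.16 for Nhlh2 and -0.48 for Ebf3 (edgeR adjusted p = 0.256, 0.795 and 0.391). Ttr in untreated replicate 1, which had the highest Calb2 level, was high as given above, and without that animal the log2 fold change was -0.92 (edgeR adjusted p = 0.0734). The part of these features in the Calb2 difference was otherwise not tested.

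**Figure D2:**
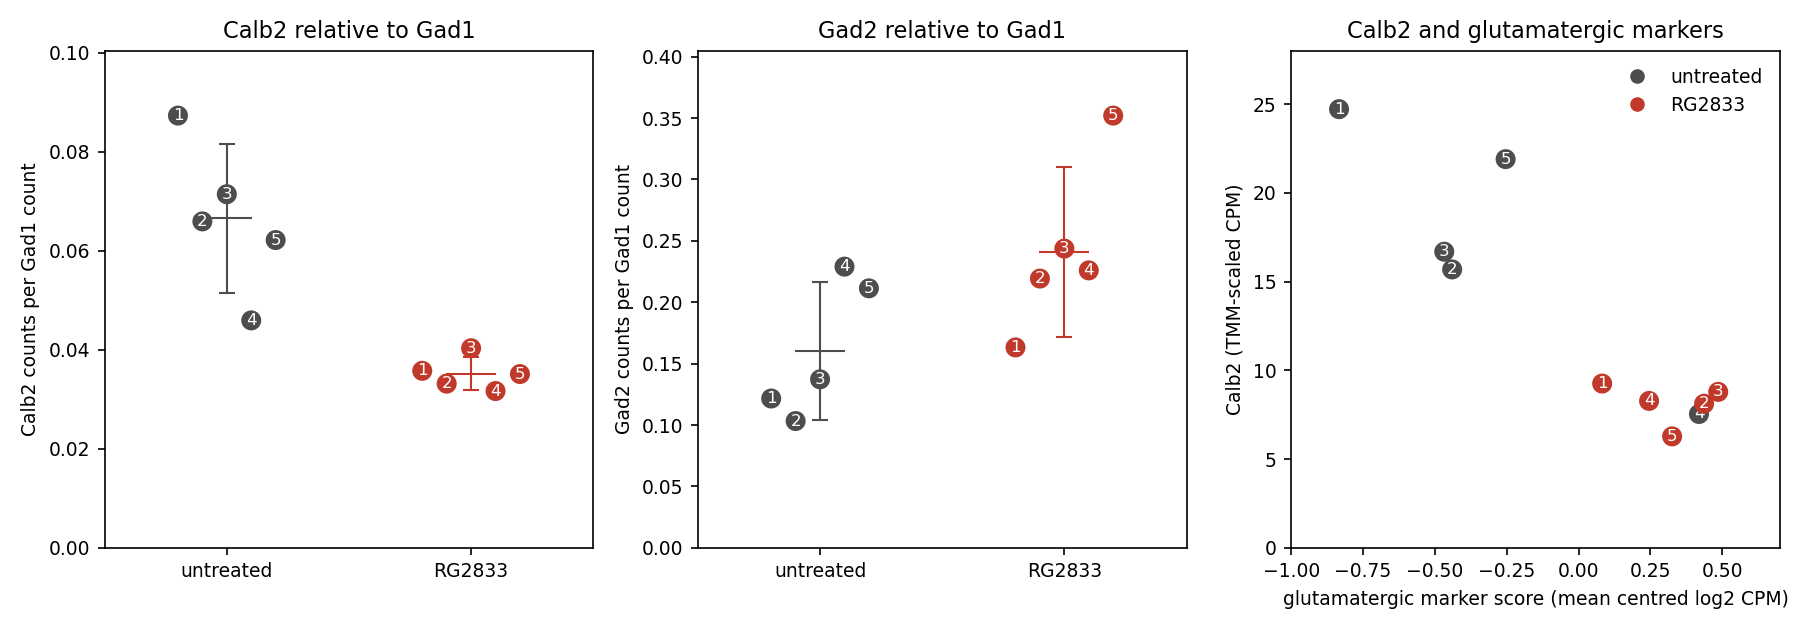
Left and centre: Calb2 and Gad2 counts per Gad1 count in each animal (y axes from 0), with the mean and SD of 5 untreated (grey) and 5 RG2833 (red) rats; digits are replicate numbers. Right: Calb2 in CPM against the glutamatergic marker score, where untreated replicate 4, at 0.42 and 7.54 CPM, lies among the RG2833 rats and is partly covered by RG2833 replicate 2.

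Relative to Gad1 within the same library, Calb2 was also lower. There were 0.0873, 0.0659, 0.0714, 0.0459 and 0.0621 Calb2 counts per Gad1 count in untreated replicates 1 to 5. In RG2833 replicates 1 to 5 there were 0.0357, 0.0332, 0.0403, 0.0317 and 0.0351. On this scale the groups did not overlap, and untreated replicate 4 was the lowest untreated animal but above all treated ones. Gad1 itself was lowest of the 10 animals in untreated replicate 4 (164.2 CPM), which raised the ratio of that animal. Of the 9 ratios to Gad1, that of Calb2 was the only one without overlap, against 0.45% of all tested genes other than Gad1 itself in the same ratio. Per count of Slc32a1 or of Gad2 the groups overlapped. Untreated replicate 4 had 81 Calb2, 736 Slc32a1 and 404 Gad2 counts, and RG2833 replicate 1 had 97, 765 and 443. On both of these scales RG2833 replicate 1 was above untreated replicate 4. No test was run on these ratios.

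Vip encodes vasoactive intestinal peptide, made by interneurons that inhibit other interneurons. It was 11.9, 16.6, 19.1, 9.96 and 20.7 CPM in untreated animals and 9.44, 15.7, 10.9, 16.1 and 8.27 CPM in RG2833 animals. All RG2833 values were below the untreated median of 16.6 CPM, and 2 were below the untreated minimum. On the log2 scale Vip differed by -0.37 ± 0.23 (SE; edgeR adjusted p = 0.347), with a 95% interval from -0.88 to 0.14.

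Cck encodes cholecystokinin, a peptide of one basket cell class and of pyramidal cells. Untreated animals had 353.2, 323.8, 484.3, 285.3 and 282.5 CPM, and RG2833 animals 301.1, 413.0, 276.7, 394.2 and 238.5 CPM. The groups overlapped, with 2 of the 5 RG2833 animals below the untreated minimum. For Cck the log2 fold change was -0.091 ± 0.18 (SE; edgeR adjusted p = 0.789; 95% interval -0.47 to 0.29).

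Npy and Reln are shared by several classes. Npy, the gene of neuropeptide Y in neurogliaform, ivy and many hilar somatostatin cells, was 59.6, 67.0, 27.4, 52.0 and 51.6 CPM in untreated animals and 50.2, 66.4, 60.9, 57.7 and 45.7 CPM in RG2833 animals. Untreated replicate 3 was the lowest of the 10, and the treated values lay within the untreated range. Its log2 fold change was 0.13 ± 0.19 (SE; edgeR adjusted p = 0.720; 95% interval -0.29 to 0.54). Reln, which encodes the secreted glycoprotein reelin, was 72.9, 73.3, 77.7, 53.5 and 131 CPM in untreated and 70.3, 86.9, 70.5, 83.1 and 69.3 CPM in RG2833 animals. Untreated replicate 5 was far above the others, as for Gad2. The log2 fold change of Reln was -0.10 ± 0.19 (SE; edgeR adjusted p = 0.774; 95% interval -0.51 to 0.30).

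**Figure D3:**
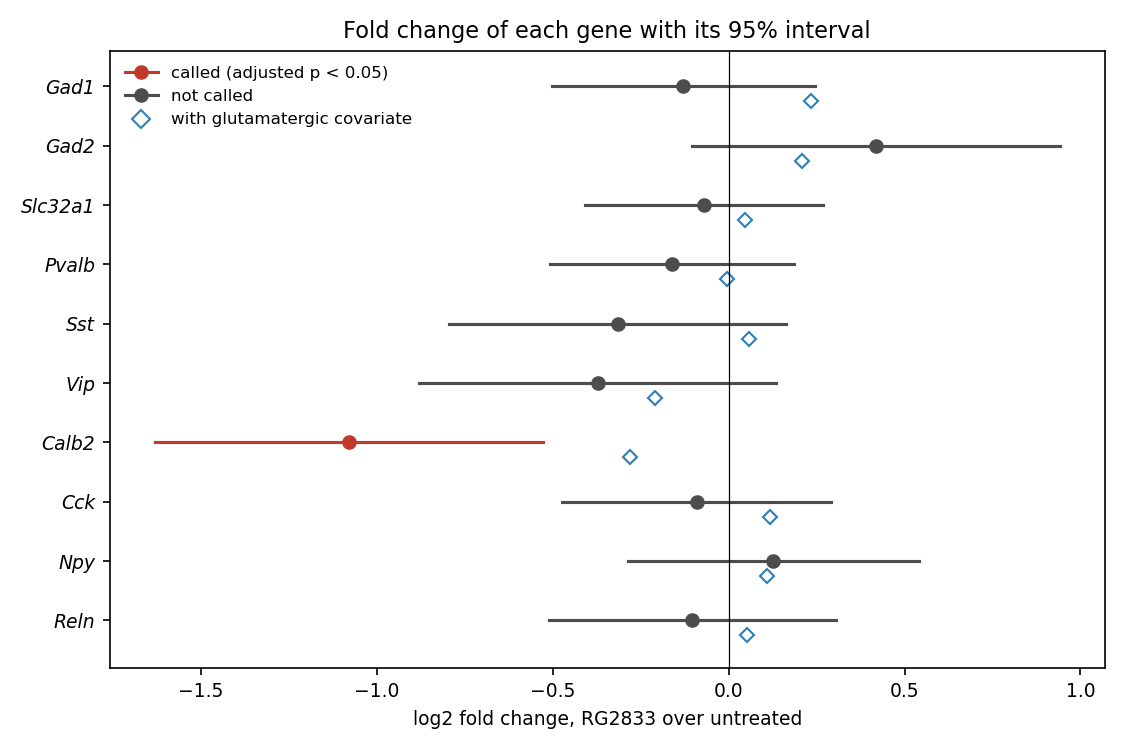
Log2 fold change of RG2833 over untreated (x axis) for the 10 genes, with 95% intervals from edgeR as lines; Calb2, the called gene, is red. Open diamonds, drawn slightly lower, are the values with the glutamatergic marker score as a covariate, where Calb2 is at -0.28.

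The intervals give the precision of these differences. For Gad1, Slc32a1, Pvalb, Cck, Npy and Reln they lay within -0.51 and 0.54 on the log2 scale, while those of Gad2, Sst and Vip were wider.

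Some animals were at the end of the range for several of the genes. Untreated replicate 5 had the highest level of all 10 animals for 6 of the genes, namely Gad1, Gad2, Slc32a1, Sst, Vip and Reln, and untreated replicate 4 was the lowest untreated animal for Gad1, Sst, Vip, Calb2 and Reln. RG2833 replicate 5 was the lowest treated animal for 8 of the genes but the highest for Gad2. The SD was larger in the untreated than in the RG2833 group for 10 of 10 genes, with a median ratio of SDs of 1.90. The same held for 74.8% of all tested genes, with a median ratio of 1.45. Without untreated replicate 3 the count was 8 of 10, and without untreated replicate 5 it was 9.

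**Figure D4:**
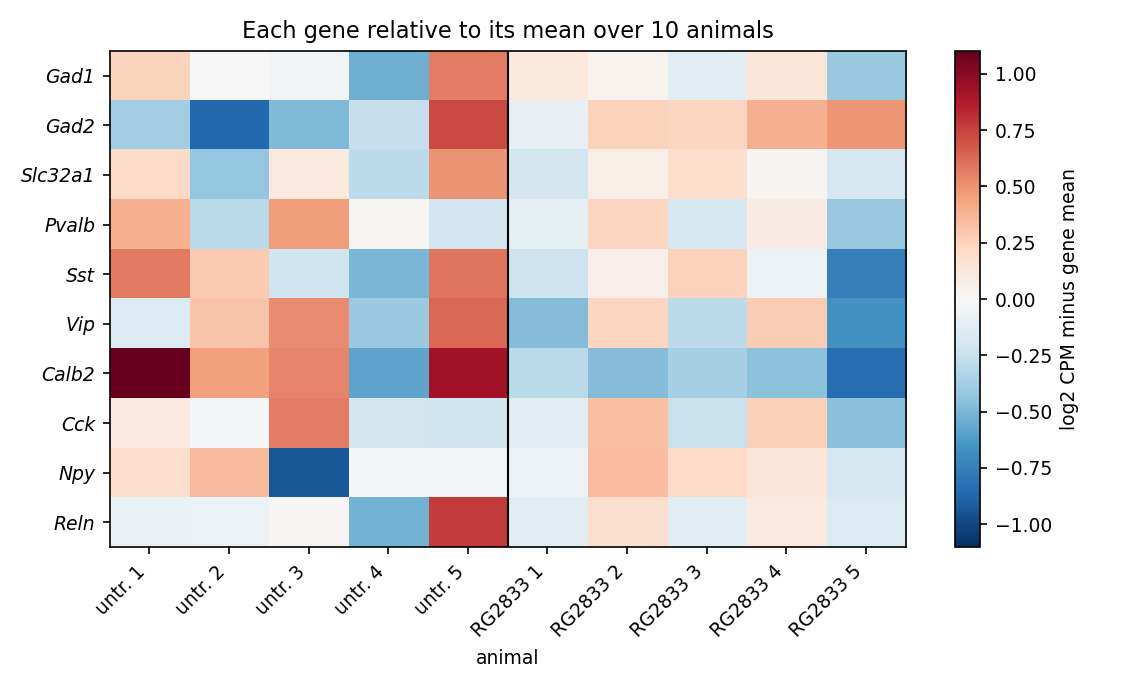
Log2 CPM of each gene (rows) minus its mean over the 10 animals (columns), from low in blue to high in red; the line separates untreated from RG2833 animals. Calb2 is above its mean in untreated replicates 1, 2, 3 and 5 and below it in the other 6 animals.

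Genes whose deviations from the group means followed those of the GABA core (the mean of Gad1, Gad2 and Slc32a1) most closely over the 10 animals were sought among 11742 genes. The 5 highest Pearson correlations were those of Elfn1 (0.97), Kcnc2 (0.95), Nxph1 (0.95), Rnf34 (0.93) and Rrn3 (0.93). Elfn1 encodes a postsynaptic protein of somatostatin cells, and Kcnc2 a potassium channel subunit of fast-spiking cells. They are the highest of many and share libraries with the core, so no p is given. None of the 5 was called (edgeR adjusted p from 0.252 to 0.899). Among the class markers, the same correlation was 0.88 for Reln, 0.60 for Calb2, 0.58 for Sst and 0.51 for Vip. It was 0.052 for Pvalb, 0.016 for Npy and -0.0034 for Cck.

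A wider set of 83 genes of inhibitory neurons and their synapses was examined in 9 lists. Of these, 74 were tested, 2 were called higher (Sstr2 and Dab1) and 0 were called lower. This share can be read against the 5.08% called among all genes. Their median log2 fold change was 0.083, and 3 of the 74 had groups that did not overlap (Slitrk3, Gabbr2 and Slc17a8), against 7.27% of all genes. At an unadjusted p under 0.05 there were 19 of 74, against 24.5% of all genes.

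Sstr2 encodes a somatostatin receptor that inhibits the neurons bearing it. It was 12.1, 11.99, 10.4, 17.5 and 11.95 CPM in untreated animals and 17.4, 19.7, 26.0, 17.2 and 20.8 CPM in RG2833 animals. Untreated replicate 4 lay among the treated animals, as for Calb2. The log2 fold change was 0.66 ± 0.16 (SE; edgeR adjusted p = 0.0357). Another receptor of the same peptide, Sstr1, had a value of -1.20 ± 0.39 (log2, SE) and did not pass (edgeR adjusted p = 0.0837). Its untreated levels were 14.99, 22.1, 33.5, 6.42 and 37.0 CPM and its treated levels 6.41 to 13.9 CPM. The remaining 8 tested receptors of somatostatin, neuropeptide Y, VIP and cholecystokinin were not called, with log2 fold changes from -0.26 for Npy2r to 0.31 for Sstr4.

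Dab1 encodes the adaptor that passes the reelin signal into the cell. It was 26.3, 37.0, 31.2, 35.5 and 31.9 CPM in untreated animals and 36.8, 43.3, 42.7, 42.1 and 46.9 CPM in RG2833 animals, so the groups met only at untreated replicate 2. The log2 fold change was 0.39 ± 0.099 (SE; edgeR adjusted p = 0.0445). The reelin receptor gene Vldlr did not pass (0.20 ± 0.095, log2, SE; edgeR adjusted p = 0.213). Sstr2 and Dab1 each passed in 2 of the 10 fits that left out an animal, and with the glutamatergic score as a covariate their log2 fold changes were 0.30 and 0.20 (edgeR adjusted p = 0.749 and 0.768). Neither passed with the replicate block (0.66 and 0.39; edgeR adjusted p = 0.0897 and 0.0578), the Ttr covariate (0.67 and 0.35; 0.0568 and 0.0698) or the ribosomal RNA covariate (0.10 and 0.42; 1.00 for both).

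The inhibitory postsynapse list had the highest median of the 9 lists, at 0.33, with 0 of 7 called. Slitrk3, a synaptic adhesion protein of inhibitory contacts, was 33.5 to 58.8 CPM in untreated and 63.3 to 70.5 CPM in RG2833 animals (log2 fold change 0.51 ± 0.14, SE; edgeR adjusted p = 0.0505). Gabbr2, a GABA-B receptor subunit, was 450.5 to 541 CPM in untreated and 566 to 712 CPM in RG2833 animals (0.33 ± 0.090; edgeR adjusted p = 0.0512). Neither passed here, although their groups did not overlap, and Slitrk3 passed with limma-voom (adjusted p = 0.0447) and with limma trend. It was 0.54 with the replicate block and 0.11 with the ribosomal RNA covariate and passed in neither. Slitrk3 and Gabbr2 each passed in 2 of the 10 fits that left out an animal. With the glutamatergic score as a covariate they were 0.24 and 0.28 (edgeR adjusted p = 0.796 and 0.693). Lhfpl4, which anchors GABA-A receptors, had a value of 0.39. The scaffold gene Gphn (gephyrin) and the receptor subunit gene Gabbr1 were level, at -0.0058 ± 0.069 and 0.036 ± 0.077 (log2, SE).

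Interneuron transcription factors had 0 of 15 called and a median of 0.13. Nr2f2, a factor of caudal eminence cells, was lowest at -1.33 ± 0.45 (log2, SE; edgeR adjusted p = 0.0953). Its levels were 30.9, 40.8, 61.6, 7.91 and 73.8 CPM in untreated and 10.1 to 25.2 CPM in RG2833 animals, so that untreated replicate 4 was again low. Nkx2-1, at -0.76, was next lowest, and Dlx2 (0.67) and Sp8 (0.90) were highest. Lhx6, a factor of medial eminence cells, was at -0.14 (edgeR adjusted p = 0.662).

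The lists of single classes were centred near 0, with none of their genes called in the main comparison. Parvalbumin cell genes had a median of -0.037 over 11 genes, from Tac1 (-1.47) and Erbb4 (-0.33) to Hapln1 (0.32) and Acan (0.39), the last 2 encoding parts of the perineuronal net. Somatostatin cell genes had a median of -0.033 over 8 genes, with Sstr1 and Grin3a (-0.97) lowest and Pnoc (0.45) among the highest. VIP, calretinin and CCK cell genes had a median of 0.027 over 8 genes, from Htr3a (-0.85), a serotonin receptor subunit of caudal eminence cells, and Igf1 (-0.39) to Tac3 (0.32) and Slc17a8 (0.72). Neurogliaform cell genes had a median of 0.023 over 6 genes, from Cplx3 (-0.61) and Kit (-0.16) to Lamp5 (0.18) and Gabrd (0.23). Genes of GABA uptake, breakdown and chloride transport had a median of 0.022 over 8 genes, from Slc6a11 (-0.069), a GABA transporter gene, to Slc38a1 (0.20) and the chloride exporter gene Slc12a5 (0.32).

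Marker lists of other cells are given beside these. Of 12 glutamatergic markers, 2 were called higher and 0 lower (Neurod1 at 0.59 and Camk2a at 0.67), with a median of 0.53 and a summed level of 5291 to 7793 CPM in untreated and 7864 to 8400 CPM in RG2833 animals. Of 8 pan-neuronal markers, 1 was called higher (Rbfox3, 0.57) and the median was 0.20. Astrocyte and oligodendrocyte markers had 0 called of 5 each, and microglial markers 1 of 5 called lower (Aif1, -0.74). Markers of neighbouring thalamus and striatum had 0 of 8 called and a median of -0.13. The lowest of them was Slc17a6, a vesicular glutamate transporter gene of thalamic neurons, at -0.64 ± 0.21 (log2, SE; edgeR adjusted p = 0.0861). It was 16.8, 14.6, 13.2, 10.98 and 18.6 CPM in untreated replicates 1 to 5 and 6.38 to 13.4 CPM with RG2833, with untreated replicate 4 the lowest untreated animal. Another thalamic gene of the list, Tcf7l2, was at -0.0093 and lowest among the untreated in replicate 5, and the striatal gene Ppp1r1b was at 0.36 (edgeR adjusted p = 0.0913). The remaining genes of the list were at -0.40 (Prkcd), -0.32 (Rgs9), -0.17 (Drd2), -0.087 (Drd1) and 0.16 (Adora2a). The part of these differences in the interneuron values was not tested beyond the covariate fits.

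**Figure D5:**
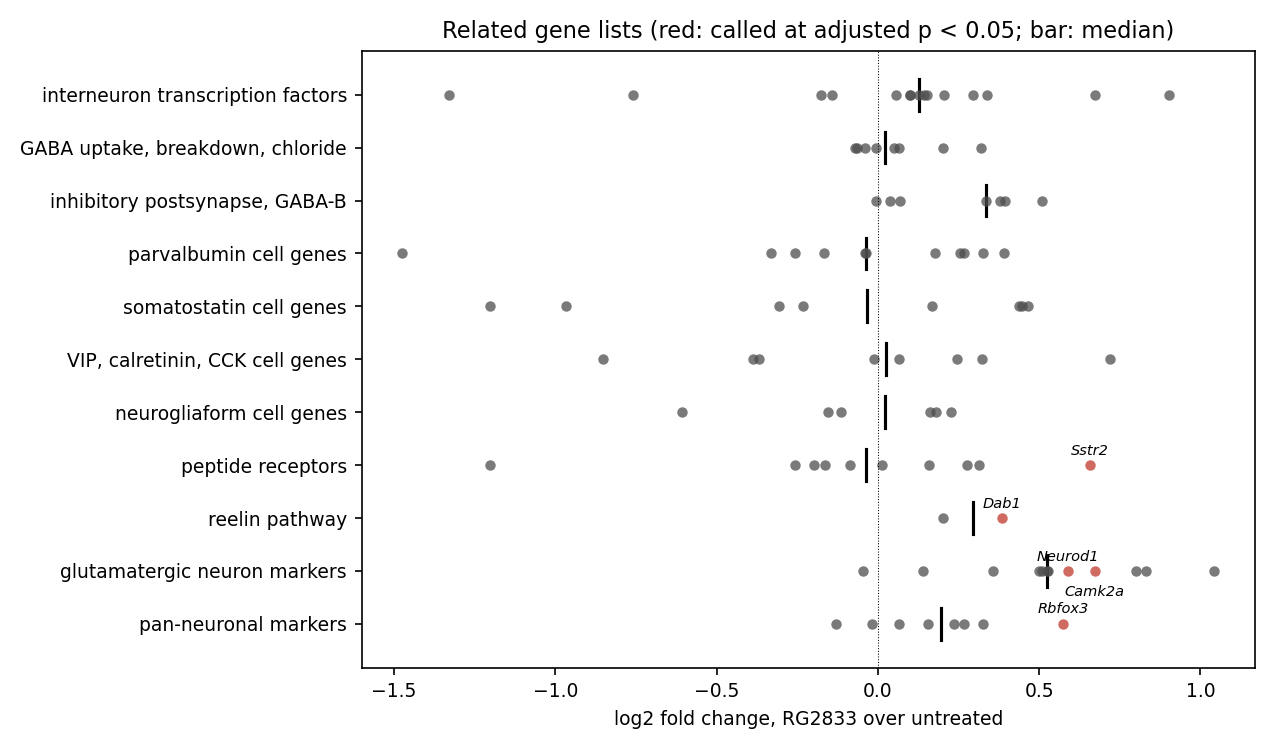
Log2 fold change of RG2833 over untreated (x axis) for each tested gene of 9 lists of inhibitory neuron genes and 2 lists of neuronal markers; red points are called and named, and bars are list medians. The glutamatergic list has a median of 0.53, and the class lists lie near 0.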

How the data were processed

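The authors deposited 2 tables of 17168 gene symbols for the 10 libraries. The first holds the estimated counts of RSEM, deposited with 2 decimals. The second holds a normalized signal, deposited by the authors as TMM-scaled CPM. Bowtie2 2.1.0, RSEM 1.2.15, edgeR and the rn6 build are named, without their roles, per the submitters' processing notes; the annotation is not given in the sources used here. Per the labels' protocols, the libraries were made with a stranded mRNA kit.

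Expected counts were rounded, filtered with filterByExpr (11791 genes left) and tested with edgeR 4.0.16 in R 4.3.3 (quasi-likelihood, TMM, no covariate, all 10 animals). SE is the fold change over the square root of F. Log2 CPM for scores and deviations was computed with prior count 2. The members and gene lists were chosen with earlier results of these data known. The text names every member, called genes and the 2 highest and 2 lowest of each inhibitory list, and the 5 genes most like the GABA core; other marker lists are given by summaries and called genes. Some genes that the rule would name are not reported here. Gabbr2, Lhx6, Slc17a6, Tcf7l2, Ppp1r1b, Prkcd, Rgs9, Drd1, Drd2, Adora2a, Slc17a7, Fibcd1, Ttr, Wfs1, Tp73, Nhlh2, Ebf3, Lhx1 and Lhx5 fall outside this rule and were named after their values were seen. Levels of different genes were not compared, since transcript lengths were not used here. Dlx and other genes with antisense partners are uncertain if counting ignored strand.

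A floor of 3 counts is 0.265 to 0.342 CPM and covers counting error only. Within groups, 20 pairs of libraries differed beyond sampling noise (chi-square per degree of freedom at least 4.72), so none was treated as the same library deposited again. On simulated data with 200 of 11732 genes changed by 1 log2 unit, 173 were recovered with 12 false calls. The simulation drew genes independently, with the same dispersion in both groups. It held neither the wider untreated spread nor the shifts shared by whole libraries, so its rates may not carry over to these data. Same-numbered animals are different rats, and the correlations of their deviations ran from -0.32 to 0.15, so the numbers do not pair them. Alternatives were other scalings, filters, DESeq2 1.42.0, limma 3.58.1 (voom, and trend on the deposited signal with pseudocounts 1 and 0.1), a replicate block, covariates, another threshold and leaving out animals.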

Additional observations from a re-analysis of the deposited data

Results flagged for a closer look

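Among 86 groups of 5 values (the 10 interneuron genes and the named genes of the inhibitory lists, in each treatment group), 7 held a value whose gap to its neighbour was more than 0.71 of the group's range, where chance gives about 4.3 (1 in 20). One of the 7 concerned the 10 interneuron genes. In untreated replicate 5, Gad2 reached 74.5 CPM, and the rest of its group had 24.6 to 37.6 CPM.

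The remaining ones were in related genes. Untreated replicate 1 was high for Lamp5, a neurogliaform cell gene (104.0 CPM, the others 53.1 to 61.0 CPM), and for Pnoc, a peptide gene of somatostatin cells (14.1 CPM, the others 7.93 to 9.49 CPM). Untreated replicate 2 was high for Cplx3 (31.6 CPM, the others 6.58 to 11.95 CPM) and low for Acan (5.29 CPM, the others 10.75 to 12.05 CPM). RG2833 replicate 3 was low for Cplx3 (7.75 CPM, the others 9.45 to 9.73 CPM). In untreated replicate 4, Sstr2 reached 17.5 CPM, and the rest of its group had 10.4 to 12.1 CPM.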

How the results depend on the processing

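The alternative that left out untreated replicates 1 and 4 together was chosen after seeing the data. Of the 10 interneuron genes, 1 was called (Calb2) with the other scalings and filters, DESeq2's Wald test, limma trend, a table without Bc1 and the ribosomal RNA loci, an adjusted p under 0.1 and without untreated replicates 1 and 4. The number called was 0 with limma-voom, the replicate block, and the ribosomal RNA, choroid plexus (Ttr alone passed the filter) and glutamatergic covariates, and 0 to 2 over the fits that left out 1 animal; the cause was not tested. The number of members without overlap was 0 under each scaling and 0 to 1 when 1 animal was left out, against 8.24% to 14.3% of all tested genes in the same comparisons. The 2 calls among the wider genes became 1 (Sstr2) with library totals and without a filter. With the choroid plexus covariate both were lost and 1 other gene, Pnoc, was called. The count was 3 with limma-voom and with limma trend (Slitrk3 added), 8 with DESeq2's Wald test, 0 with the replicate block and with the ribosomal RNA and glutamatergic covariates, 10 at an adjusted p under 0.1, 14 without untreated replicates 1 and 4, and 0 to 11 when 1 animal was left out, with 11 without untreated replicate 4 and 7 without untreated replicate 5. Of all tested genes, 10.9% were called by the Wald test, 12.4% at an adjusted p under 0.1, 11.6% without untreated replicates 1 and 4, 13.1% without untreated replicate 4 and 7.61% without untreated replicate 5. The 599 calls over all genes became 1286 with DESeq2's Wald test, 180 with the replicate block, 266 and 5 with the choroid plexus and glutamatergic covariates, 2 with the ribosomal RNA covariate, and 98 to 1556 over the fits without 1 animal.

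Uncalled log2 fold changes turned sign with the glutamatergic covariate (Gad1 0.23, Slc32a1 0.047, Sst 0.059, Cck 0.12, Reln 0.053) and with the ribosomal RNA covariate (Gad2 -0.36, Pvalb 0.012, Vip 0.19, Cck 0.49). When 1 animal was left out, they ran from -0.25 to 0.018 for Gad1, -0.17 to 0.064 for Slc32a1, -0.19 to 0.055 for Cck, -0.040 to 0.24 for Npy and -0.22 to 0.13 for Reln. Without a change of sign they ran from -0.25 to -0.063 for Pvalb, -0.45 to -0.19 for Sst, -0.50 to -0.25 for Vip and 0.28 to 0.75 for Gad2. Calb2 stayed negative in every fit run, from -1.27 to -0.28.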
